A study of Arabidopsis with 22 samples.

Results

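The genes described here were near silent in wild-type Arabidopsis and expressed in a mutant whose immune system is always on. They were selected on their measured levels: a mean below 0.3 RPKM in Col-0 at both collection times, and a mean of at least 1 RPKM in *acd6-1* at both. RPKM counts the reads of a gene, scaled to its length in kilobases and to the mapped reads of its library. Of 25218 transcripts in the table, 4670 were off in Col-0 by this threshold and 18195 were on in *acd6-1*, and 91 met both conditions. Since Col-0 and *acd6-1* libraries chose the genes, their levels there are a description with no test. The *lux-1* and *acd6-1lux-1* libraries had no part in the choice.

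All libraries came from whole plants, 25 days old, grown under 12 h of light and 12 h of dark and collected either 1 h into the light (ZT1) or 1 h into the dark (ZT13). Col-0 is the wild type. *lux-1* carries a nonsense mutation in *LUX*, which encodes a clock transcription factor of the evening complex. *acd6-1* is a gain-of-function mutant of *ACD6*, a membrane protein, and is dwarfed with constitutive defense; its label reads acd6-1-0. *acd6-1lux-1* carries both mutations. The 22 libraries made 6 groups of 3 and, for both *acd6-1* genotypes at ZT13, 2 groups of 2, and the study calls its replicates biological samples. Whole plants mix organs, so fewer cells of a type and less RNA per cell cannot be told apart.

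A plant cell that perceives a pathogen makes salicylic acid (SA) and N-hydroxypipecolic acid, the mobile signal of systemic acquired resistance, and switches on genes for receptors, antimicrobial metabolites and cell wall enzymes. Many such genes are kept nearly off in healthy leaves. LUX, together with ELF3 and ELF4, represses target genes in the evening.

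Mapped reads ran from 10306552 to 16224975 per library. In 21 libraries 79.8% to 81.6% of reads were mapped, whereas replicate 3 of *acd6-1lux-1* at ZT1 had 60.5% mapped and 0.661% of its mapped reads on chloroplast genes, against at most 0.0239% elsewhere. *LUX* RNA at ZT13 was 65.3 to 81.0 RPKM in the 5 libraries carrying *lux-1* and 6.10 to 8.17 RPKM in the other 5, so its level separates the genotypes, although a nonsense allele need not change RNA level. *ACD6* was 368 to 600 RPKM in the 6 ZT1 libraries carrying *acd6-1* and 112 to 211 RPKM in the other 6, but overlapped at ZT13. The summed level of 5 leaf markers was lower in *acd6-1* (23270 to 26730 RPKM at ZT1) than in Col-0 (51420 to 54810 RPKM), as it was in *acd6-1lux-1* than in *lux-1* (24410 to 30560 against 37690 to 50910 RPKM at ZT1, and 18520 to 21780 against 30020 to 34250 RPKM at ZT13). Its part in the results below was not tested.

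Most of the genes were low even when on. In *acd6-1*, 85 of the 91 stayed below 10 RPKM at both times and 69 below 5 RPKM, and the median of the group means was 2.07 RPKM at ZT1 and 2.26 RPKM at ZT13. The Col-0 medians were 0.0681 and 0.165 RPKM. A median of 9 reads per gene was found over all 6 Col-0 libraries, against 148 over the 5 *acd6-1* libraries. In 7 genes no Col-0 library held a read, and in 17 others the 6 libraries held 1 to 3 reads in all. When the off threshold was 0.1 RPKM, 20 genes remained, and requiring every library to pass in place of the mean left 26.

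**Figure D1:**
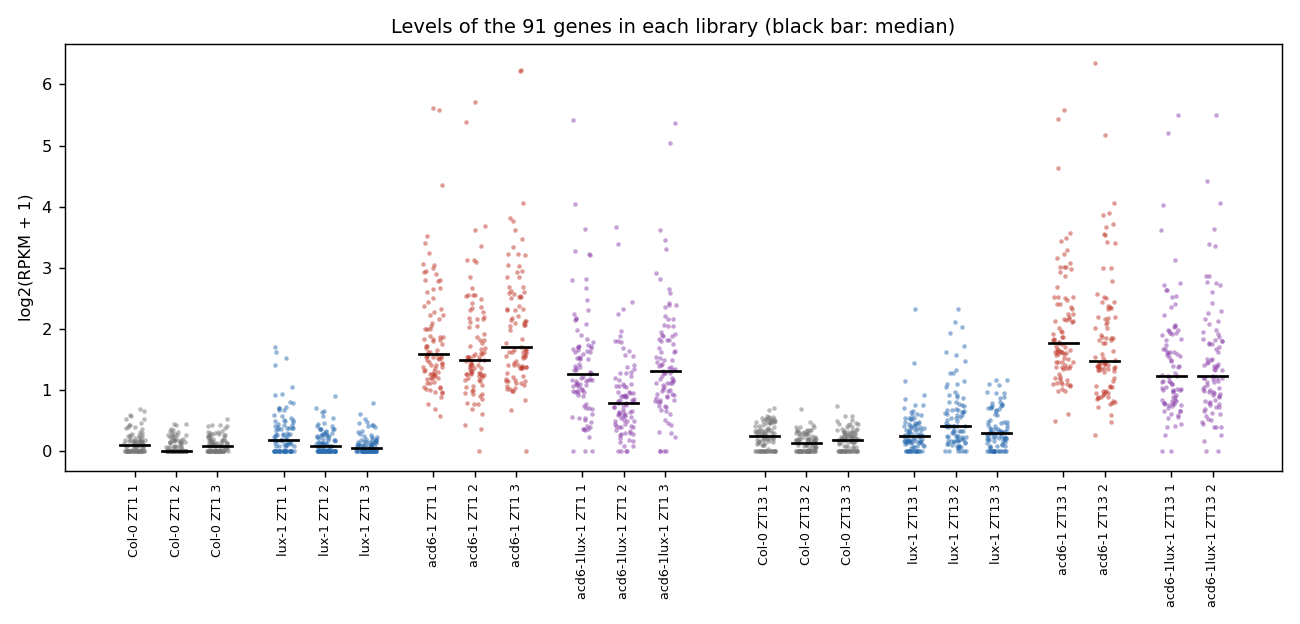
Level of each of the 91 genes in each of the 22 libraries, as log2(RPKM + 1), with ZT1 on the left, ZT13 on the right, and a black bar at each library's median. The Col-0 and *acd6-1* groups lie apart because the rule set them apart; the *acd6-1lux-1* medians, 0.734 to 1.48 RPKM, lie between those of *lux-1* and *acd6-1*.

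The gene with the highest *acd6-1* level was *FMO1* (AT1G19250, on chromosome 1), the monooxygenase that makes N-hydroxypipecolic acid from pipecolic acid. Its *acd6-1* libraries held 47.0, 51.3 and 74.4 RPKM at ZT1 and 47.1 and 80.2 RPKM at ZT13. Its 6 Col-0 libraries held 0.0494 to 0.378 RPKM. Summed over libraries this was a 317-fold difference (95% counting interval 211 to 501, which covers counting error only), from 23 Col-0 reads and 6733 *acd6-1* reads. Such intervals do not allow for the choice of the genes on these same libraries. In *lux-1* the libraries ran from 0 to 0.347 RPKM at ZT1 and from 0.237 to 0.568 RPKM at ZT13, overlapping Col-0 at both times. In *acd6-1lux-1* they held 41.6, 11.8 and 40.2 RPKM at ZT1 and 44.0 and 44.5 RPKM at ZT13, all below the *acd6-1* libraries of the same time and far above every *lux-1* library.

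*ADPG2* (AT2G41850), a polygalacturonase that loosens cell walls in organ shedding and pod opening, came next. It stood at 54.1 ± 17.2 RPKM (SD, n = 3) in *acd6-1* at ZT1, and at ZT13 its 2 libraries differed widely, at 42.1 and 13.5 RPKM. Its Col-0 libraries held 0.0539 to 0.573 RPKM. *FMO1* and *ADPG2* together made up 29.1% of the summed RPKM of the 91 genes in *acd6-1* at ZT1 and 23.1% at ZT13.

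Other enzymes of specialized metabolism followed. *BGLU31* (AT5G24540), a beta-glucosidase, had no read in any Col-0 library at ZT1 and held 11.6 ± 1.33 RPKM (SD, n = 3) in *acd6-1*. At ZT13 its *acd6-1* libraries held 23.9 and 35.2 RPKM. A second beta-glucosidase, *BGLU27* (AT3G60120), stood at 5.97 ± 1.69 RPKM (SD, n = 3) in *acd6-1* at ZT1. *CYP82C2* (AT4G31970), a cytochrome P450 of the 4-hydroxyindole-3-carbonylnitrile pathway, held 8.43, 5.40 and 11.3 RPKM in *acd6-1* at ZT1, against 0.0475 to 0.141 RPKM in Col-0, which reached 0.602 RPKM in 1 library at ZT13. Its close relative *CYP82C3*, 1 gene away on chromosome 4, held 1.88, 0.623 and 0.798 RPKM there. Reads from such near-identical neighbours may be shared between them, so their separate levels are uncertain.

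Immune receptors formed the next group. *RMG1* (AT4G11170), a nucleotide-binding leucine-rich repeat receptor, lay just inside the off threshold, with 0.294 RPKM in Col-0 at ZT13, of which replicate 1 alone held 0.628 RPKM. In *acd6-1* it reached 8.50 ± 3.55 RPKM (SD, n = 3) at ZT1 and 9.13 ± 2.32 RPKM (SD, n = 2) at ZT13. *RLP11* (AT1G71390), a receptor-like protein without a kinase domain, rested on 15 Col-0 reads and 1311 *acd6-1* reads, a 94.8-fold difference (95% counting interval 57.2 to 169.8). *LecRK-I.1* (AT3G45330), a lectin receptor kinase, was lower, at 2.79 ± 0.353 RPKM (SD, n = 3) in *acd6-1* at ZT1.

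By symbol, the annotation held 70 WRKY transcription factors in the table, of which *WRKY59* (AT2G21900) was a member. Since 91 of 25218 transcripts were members, most families of such sizes would hold few or none at that share. A single read was found for it in the 6 Col-0 libraries and 141 in *acd6-1*, where it stood at 2.80 ± 0.781 RPKM (SD, n = 3) at ZT1. None of 100 genes with a NAC symbol, 42 with a CRK symbol or 64 with a UGT symbol was a member. The 58 members without a symbol could not be placed in a family this way, so all family counts here may be too low. Of 25 phloem protein 2 genes, which encode sieve-element lectins and their relatives, 3 were: *PP2-B8*, *PP2-A7* and *PP2-A8*, the last 2 separated by 1 gene on chromosome 5. *PP2-B8* held 3.27 ± 0.865 RPKM (SD, n = 3) at ZT1 and 9.41 ± 3.93 RPKM (SD, n = 2) at ZT13 in *acd6-1*, from 2 Col-0 reads and 372 *acd6-1* reads. Of 243 cytochrome P450s 3 were members, of 46 beta-glucosidases 2, and of 48 glutathione transferases 1, *GSTU12*. The lectin receptor kinases (44 in the table) and receptor-like proteins (54) gave 1 member each.

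Genes of transport and hormone turnover were also present. *OPT2* (AT1G09930), an oligopeptide transporter, stood at 4.73 ± 1.96 RPKM (SD, n = 3) in *acd6-1* at ZT1, and its near neighbour AT1G09935 was a member too. *CKX2* (AT2G19500), which degrades cytokinin, held 5.27 RPKM there, and *CYP714A1* (AT5G24910), a cytochrome P450 of gibberellin inactivation, lay just inside the on threshold at 1.02 RPKM. *IDL1* encodes a small peptide related to the abscission signal IDA, and rested on 69 *acd6-1* reads.

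No symbol was given for 58 of the 91 genes. Among them AT4G39610 had no read in any Col-0 library and 385 in *acd6-1*. Taking 3 reads over the 6 libraries as the floor, the one-sided 95% limit of a count of 0, it was at least 139-fold higher. This bound, like the counting intervals above, covers counting error only. It does not allow for the choice of the genes on these same libraries. The other 6 genes without a Col-0 read had bounds of at least 15.2-fold to at least 25.7-fold. The unnamed genes AT5G19880, AT3G04320 and AT5G66890 reached 11.5, 13.8 and 7.61 RPKM in *acd6-1* at ZT1.

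**Figure D2:**
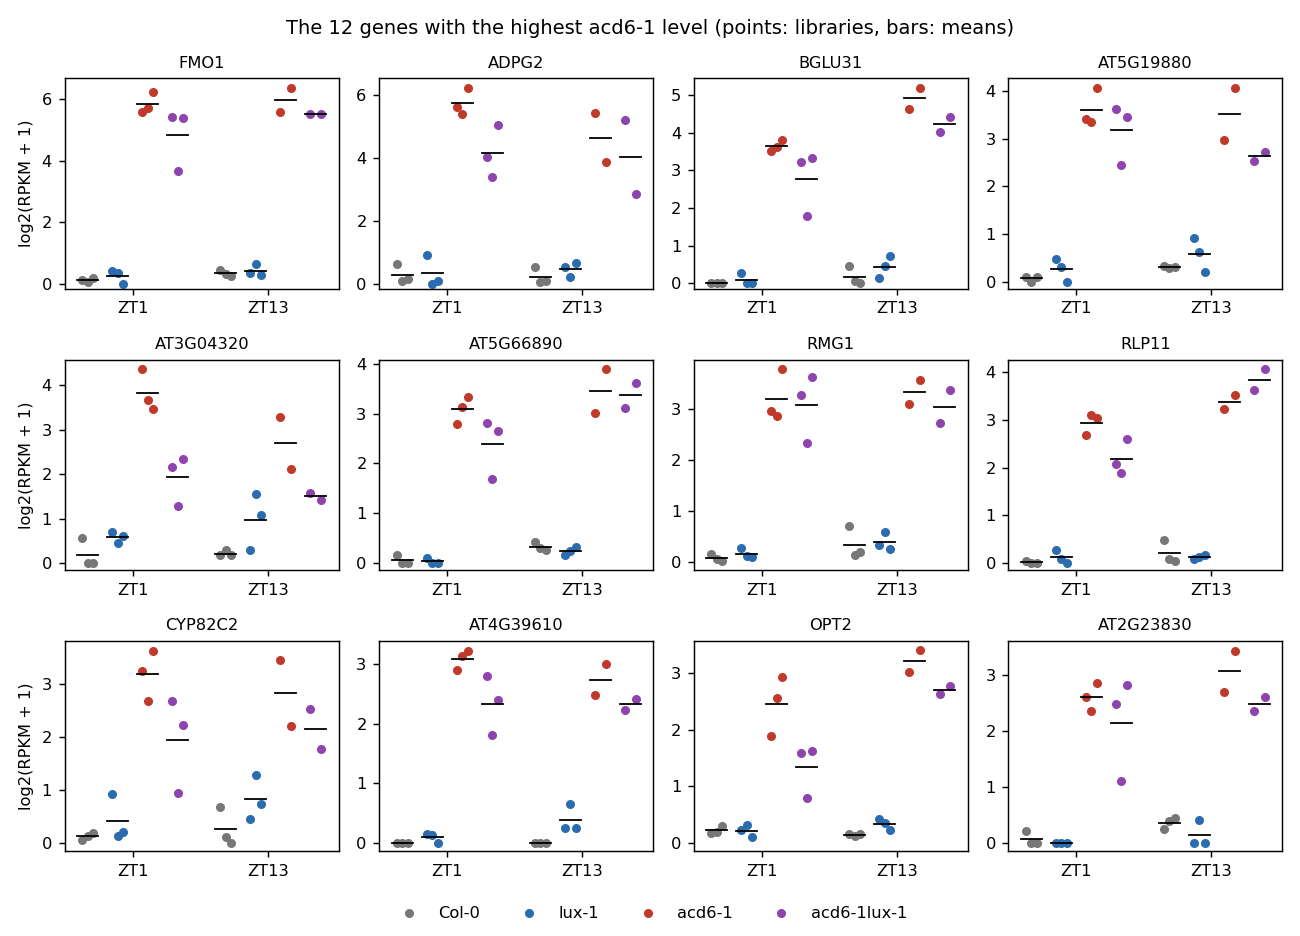
The 12 genes with the highest *acd6-1* level, each panel giving log2(RPKM + 1) by library, with the 4 genotypes in different colors at ZT1 and at ZT13, with a bar at the mean of these log values. *FMO1* in *acd6-1* lies between 47.0 and 80.2 RPKM while its *lux-1* libraries do not exceed 0.568 RPKM.

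By the higher of the Col-0 means, AT5G52720 lay just outside the off threshold at 0.300008 RPKM, with at least 33.5 RPKM in *acd6-1* at both times, followed by AT3G05390 at 0.301 RPKM and *PROPEP2*, a precursor of an immune peptide, at 0.304 RPKM. Just inside it were AT1G66870, *RMG1* and AT3G09280 at 0.295, 0.294 and 0.292 RPKM. By the lower of the *acd6-1* means, AT1G49900, *CYP714A1* and AT4G33720 were included at 1.01, 1.02 and 1.02 RPKM, and AT5G22560, AT5G38910 and AT5G37840 were left out at 0.999, 0.982 and 0.969 RPKM. Chromosome 1 held 33 of the 91 genes, 36.3%, against 26.3% of the genes tested. The members had a median inferred coding length of 990 bases, beside 1098 bases over the genes tested, and 23.1% were at most 500 bases, beside 15.6%.

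In *lux-1* most of the genes stayed off. The mean was below 0.3 RPKM for 76 of 91 at ZT1 and for 48 at ZT13, and no gene reached 1 RPKM at ZT1 while 8 did at ZT13. The median level was 0.112 RPKM at ZT1 and 0.290 RPKM at ZT13. Libraries differed: replicate 1 at ZT1 had the highest value of its group for 50 genes, and replicate 2 at ZT13 for 49.

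The 5 highest members in *lux-1* were *PDF1.1*, AT1G47980, AT2G31420, AT5G66780 and AT5G49690. *PDF1.1* (AT1G75830) encodes a plant defensin. Its *lux-1* libraries held 2.28, 0.630 and 0 RPKM at ZT1 and 0.303, 4.03 and 1.24 RPKM at ZT13. Its *acd6-1* mean at ZT1 came from 1 library, at 7.36 RPKM beside 2 at 0. In *acd6-1lux-1* only 1 library of each time held any read, at 0.291 and 0.318 RPKM, and at ZT13 its *acd6-1* libraries held 2.18 and 0.903 RPKM. The gene therefore met the rule at ZT1 through a single library. AT1G47980 likewise owed its *lux-1* means to replicate 1 of each time, at 2.08 and 4.04 RPKM.

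AT2G31420, AT5G66780 and AT5G49690 shared another pattern, with their highest *lux-1* value in replicate 2 at ZT13, at 3.35, 3.09 and 2.83 RPKM. Floral genes also stood higher in the *lux-1* background at ZT13: the sum of 10 floral and pollen markers was 41.4 to 105 RPKM in *lux-1* at ZT13 and 36.4 to 59.6 RPKM in *acd6-1lux-1*, beside 2.26 to 6.61 RPKM in Col-0 and *acd6-1*. At ZT1 it was 12.9 to 45.6 RPKM in *lux-1*, 5.54 to 26.1 RPKM in *acd6-1lux-1* and 3.83 to 14.1 RPKM in Col-0 and *acd6-1*. In *lux-1* at ZT13 the sum was highest in replicate 1 (105 RPKM), and replicate 2 held 60.6 RPKM. The part of floral genes in the *lux-1* levels was not tested.

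Whether the genes differed between times in *lux-1* was tested with limma on log2(RPKM + 1) across 21666 genes. Calls required a log2 fold change of more than 1 in size, together with a p that stayed under 0.1 after Benjamini-Hochberg adjustment. Since 1 RPKM is added and no member reached 1 RPKM in *lux-1* at ZT1, hardly any could be called on this scale, and none lower. Of the members 2 were called higher at ZT13 and none lower, while 6.94% and 3.85% of all genes were. At an unadjusted limma p under 0.05, 12 members were higher and 0 lower, but the share of all genes at that p was not counted. All *lux-1* libraries at ZT13 lay above those at ZT1 for 18 members, beside 35.4% of all genes. They lay below them for 1 member, beside 16.9%. The median of all genes itself moved by 0.15 on this log2 scale, beside the members' 0.17. After median-of-ratios scaling it was 0.04, beside 0.14 for the members. edgeR on reads recovered from the RPKM values, which adds no such constant, called 17 members higher beside 7.85% of all genes, and none lower beside 7.12%. At ZT1 replicates 1, 2 and 3 of *lux-1* held 358, 181 and 113 reads over all members. Hardly any member could therefore be called lower by edgeR either.

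The pair was *SWEET8* and AT5G66780. *SWEET8* (AT5G40260), a sugar transporter of pollen development, held 0.220, 0 and 0 RPKM in *lux-1* at ZT1 and 1.74, 2.30 and 0.630 RPKM at ZT13, with no overlap. Its log2 fold change was 1.199 ± 0.34 (SE, limma adjusted p = 0.0079). AT5G66780 changed by 1.05 ± 0.45 (SE, limma adjusted p = 0.060), and neither was called without replicate 2 of *lux-1* at ZT13. The count was 1 without replicate 2 or without replicate 3 at ZT1, and 4 without replicate 1 or without replicate 3 at ZT13.

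In *acd6-1lux-1* the genes were again expressed. The question was whether their RPKM in whole plants was higher with *acd6-1* when LUX is missing. *acd6-1lux-1* against *lux-1* addresses it in libraries that the rule did not use. At ZT1 the mean was higher for 90 of 91 genes, and 41 were called higher and none lower. Over all genes 8.57% were called higher and 1.87% lower. At ZT13 the mean on the RPKM scale was higher for 85 genes, and 39 were called higher and none lower, beside 5.38% and 2.38% of all genes. No member reached a mean of 1 RPKM in *lux-1* at ZT1, so on this scale none could be called lower there. At ZT13 only the 8 members that reached it could be. No member had an unadjusted p under 0.05 in the lower direction at either time, and the share of all genes at that p was not counted. At both times 31 genes were called, at ZT1 alone 10, at ZT13 alone 8, and at neither time 42.

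The median log2 fold change of the members was 0.89 at ZT1, beside 0.06 over all genes, and 0.84 at ZT13, beside -0.02. All *acd6-1lux-1* libraries lay above all *lux-1* libraries for 68 members at ZT1, beside 30.0% of all genes, and for 66 at ZT13, beside 26.9%. With 1 RPKM added before taking logarithms, a gene at 1 RPKM can hardly pass the fold criterion. The edgeR quasi-likelihood test on recovered reads called 72 members higher at ZT1, beside 9.95% of all genes, and 62 at ZT13, beside 6.81%. The 41 at ZT1 became 52 without replicate 2 of *acd6-1lux-1*, the lowest of its group for 74 genes, and 33 without replicate 3, the library with 60.5% mapped reads.

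**Figure D3:**
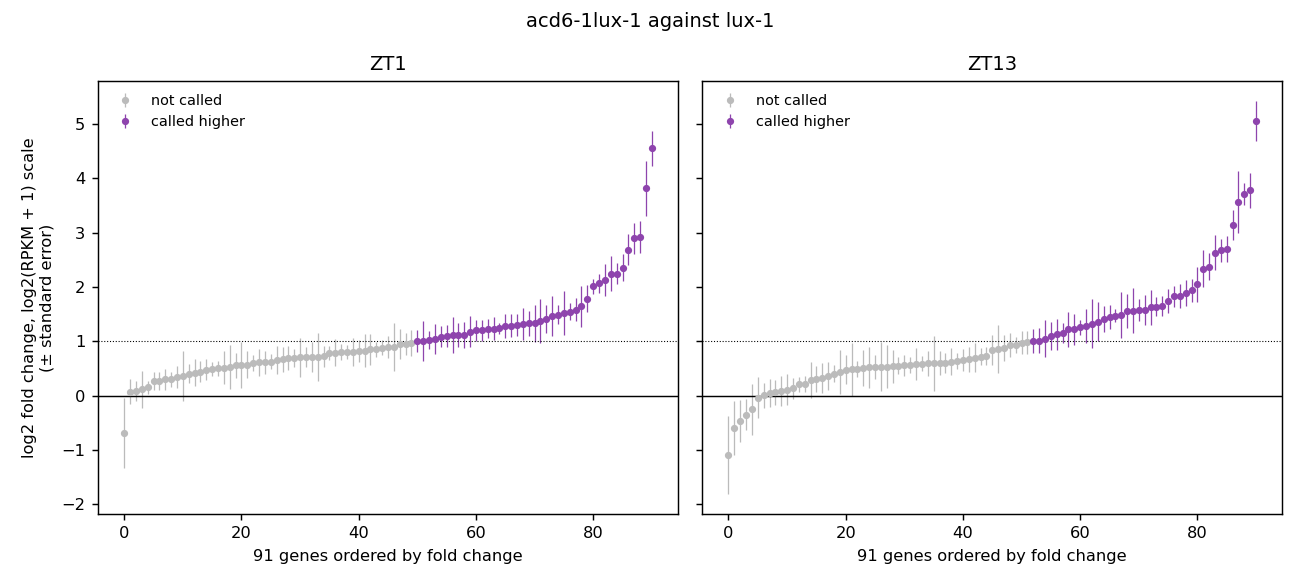
Log2 fold change of *acd6-1lux-1* against *lux-1* for the 91 genes, ordered within each time, with its standard error. At ZT1 41 genes and at ZT13 39 genes were called higher (purple); the genes below 0, 1 at ZT1 and 6 at ZT13, were not called.

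On the log2(RPKM + 1) scale, which lowers the folds of weakly expressed genes, *FMO1* had the largest fold change of the 91 at both times, 4.55 ± 0.33 at ZT1 (SE, limma adjusted p = 1.1e-08) and 5.06 ± 0.37 at ZT13 (SE, limma adjusted p = 4.8e-08). *RLP11* held 3.24, 2.72 and 5.03 RPKM in *acd6-1lux-1* at ZT1 and 11.3 and 15.7 RPKM at ZT13, while its *lux-1* libraries did not exceed 0.201 RPKM. Its log2 fold change was 3.71 ± 0.20 at ZT13 (SE, limma adjusted p = 2.6e-09). *LecRK-I.1* had the smallest adjusted p at ZT1, with 3.42, 2.48 and 4.40 RPKM in *acd6-1lux-1* and 0.0373 to 0.154 RPKM in *lux-1*, and a fold change of 2.02 ± 0.14 (SE, limma adjusted p = 6.2e-09).

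*PP2-B8* rose by 2.68 ± 0.21 at ZT13 (SE, limma adjusted p = 9.5e-08), with 5.21 and 6.32 RPKM against at most 0.0823 RPKM in *lux-1*. The unnamed AT1G13540, which adjoins the member AT1G13530 on chromosome 1, was low but even: 1.85, 1.60 and 1.61 RPKM at ZT1 and 2.83 and 2.89 RPKM at ZT13, against 0.134 to 0.514 RPKM in the *lux-1* libraries. *WRKY59* was called at both times, by 1.49 ± 0.18 and 1.83 ± 0.20 (SE). *ADPG2* was called as well, at 3.82 ± 0.51 and 3.56 ± 0.57 (SE), although its 2 *acd6-1lux-1* libraries at ZT13 held 36.0 and 6.32 RPKM.

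Among the remaining members with a symbol, *BON3*, a copine related to a repressor of immune receptors, stood in *acd6-1lux-1* at 101% and 105% of its *acd6-1* level, with overlap. It held 2.26, 1.09 and 1.44 RPKM at ZT1 and 2.81 and 5.74 RPKM at ZT13 in *acd6-1lux-1*, against 1.57 and 4.07 RPKM on average in *acd6-1*. It was called higher than in *lux-1* at both times, by 1.21 ± 0.19 and 1.84 ± 0.21 (SE, limma adjusted p = 6.3e-05 and 4.6e-06). *RSH4* was called at both times too, although its *acd6-1lux-1* libraries at ZT1 spread from 0.163 to 2.69 RPKM.

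The glutathione transferase gene *GSTU12* and *OCT1*, an organic cation transporter, were called at ZT1 only. *GSTU12* held 3.98, 2.11 and 3.17 RPKM in *acd6-1lux-1* and at most 0.413 RPKM in *lux-1*, a log2 fold change of 1.79 ± 0.24 (SE, limma adjusted p = 1.1e-05), and 0.84 ± 0.27 at ZT13 (SE, limma adjusted p = 0.024). *OCT1* stood at 0.342 ± 0.0592 RPKM (SD, n = 3) in *lux-1* at ZT1 and 0.859 ± 0.326 RPKM (SD, n = 3) at ZT13, without overlap with Col-0 at either time. At ZT13 its *lux-1* and *acd6-1lux-1* libraries overlapped, and the fold change was 0.06 ± 0.23. Whether the fold changes of these genes differed between times was not tested.

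*MYB122*, a transcription factor of indole glucosinolate synthesis, stood at 29.7% and 49.5% of its *acd6-1* level. Its *acd6-1* libraries held 2.21, 1.09 and 2.13 RPKM at ZT1 and its *acd6-1lux-1* libraries 0.423, 0.514 and 0.678 RPKM, so the groups lay apart. In *lux-1* it had no read at ZT1, and 0.0735, 1.505 and 0.528 RPKM at ZT13. It was called in neither comparison with *lux-1*, at 0.62 ± 0.21 and 0.30 ± 0.24 (SE).

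The other low members with a symbol, at 1.13 to 2.85 RPKM in *acd6-1*, were called at neither time. They were *ABCC6*, an ABC transporter, *GLR2.9*, a glutamate receptor-like channel, *SAP10*, a zinc-finger stress protein, *GLP4*, a germin-like protein, *SRO3*, *NHL25*, *EDA5*, *PGSIP8* and *GALK2*. For *ABCC6*, the member with the most Col-0 reads at 66, all *acd6-1lux-1* libraries lay above all *lux-1* libraries at both times, with fold changes of 0.62 ± 0.14 and 0.72 ± 0.15 (SE, limma adjusted p = 0.0014 and 0.0016), short of the fold criterion. For *SRO3* the values overlapped at both times, and it stood at 34.5% and 35.05% of its *acd6-1* level.

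The genes with a fold change below 0 at ZT13 were *PDF1.1*, AT5G66780, *SWEET8*, AT2G31420, AT3G46680 and AT5G49690, named here after their values were seen. None was called, and *PDF1.1* had the largest standard error among those 6, at -1.09 ± 0.72. All 6 had a *lux-1* mean of at least 1 RPKM at ZT13.

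Most genes of the pathways around these members were not silent in Col-0. Of 4 genes of N-hydroxypipecolic acid synthesis and modification, all were called higher in *acd6-1lux-1* than in *lux-1* at both times, and *FMO1* was the only member. *ALD1*, the aminotransferase that starts the pathway, stood at 0.148 RPKM in Col-0 at ZT1 but 0.612 RPKM at ZT13, and so was left out. *SARD4*, which acts between them, was at 16.3 and 47.0 RPKM in Col-0. Of 23 genes of SA synthesis and response none was a member, and 21 were called higher at ZT1 and 19 at ZT13. Of 9 camalexin and indole genes *CYP82C2* was a member, and 6 were called higher and 2 lower at ZT1, the latter being *CYP79B2* and *CYP79B3*, which make the shared indole precursor. At ZT13 5 were called higher and none lower.

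Lists of 13 genes of pattern-triggered immunity, 11 jasmonate and ethylene markers and 9 leaf senescence genes held no member. In the immunity list 9 were called higher at ZT1 and 8 at ZT13, none lower. In the senescence list 7 and 6 were called higher, none lower, and the jasmonate and ethylene list was mixed, with 5 higher and 3 lower at ZT1, then 1 higher and 2 lower at ZT13. None of the 10 floral, 5 root and 4 seed markers in the table was a member either. With 91 members among 25218 transcripts, lists this short would mostly hold none.

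Expression in *acd6-1lux-1* was mostly below that in *acd6-1*. This comparison involves libraries that chose the genes, so it is described and not tested. The median member stood at 52.8% of its *acd6-1* level at ZT1 and at 60.8% at ZT13. At ZT1 43 of 91 were under 50% and 9 were above 100%, and at ZT13 30 and 11. The ZT1 median was 63.9% without replicate 2 of *acd6-1lux-1* and 44.6% without replicate 3, and by library it was 63.1%, 28.9% and 63.2%. All libraries of *acd6-1lux-1* lay below all of *acd6-1* for 46 members at ZT1, beside 13.1% of all genes, and for 46 at ZT13, beside 17.8%.

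A rule of this kind favors genes whose *acd6-1* values happened to be high. For comparison, 599 other genes on in *acd6-1* and at least 4-fold above Col-0 at both times stood at medians of 59.7% and 75.4%, and the remaining genes on in *acd6-1* at 108% and 101%, counting the 599 among them. The 599 were chosen on the same *acd6-1* and Col-0 libraries, which favors them in the same way, so they are no control for it.

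**Figure D4:**
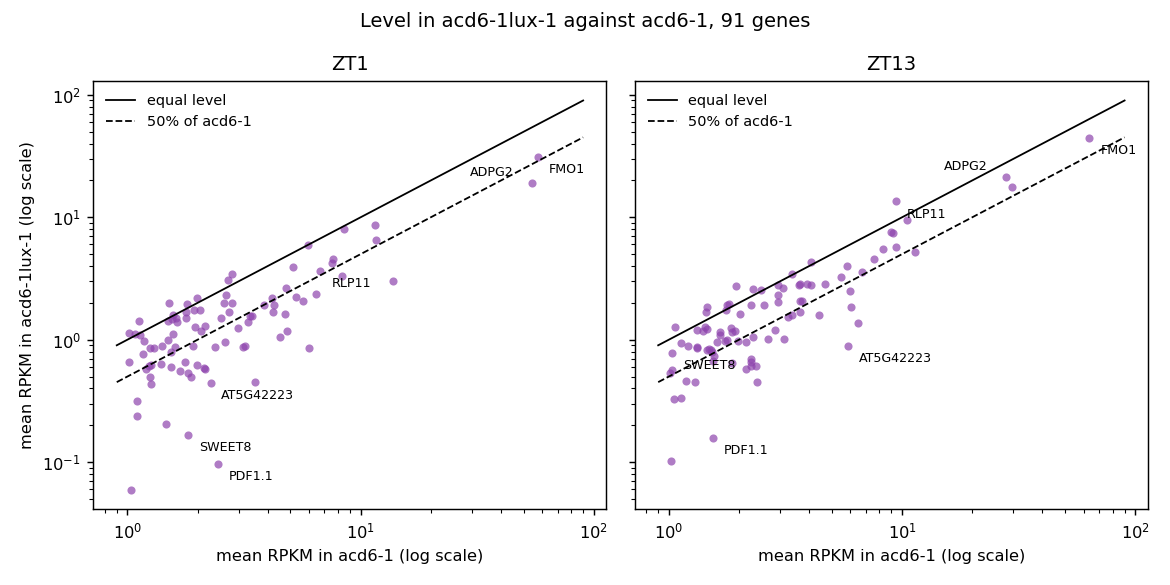
Mean RPKM of the 91 genes in *acd6-1lux-1* against *acd6-1* at ZT1 and ZT13, both axes logarithmic, with a solid line at equal level and a dashed line at 50%. The cloud straddles the dashed line at ZT1 (median 52.8%) and lies slightly above it at ZT13 (60.8%), with *PDF1.1* far below at 3.96% and 10.3%.

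Ratios varied from gene to gene among the 37 members at 2 RPKM or more in *acd6-1* at both times. The highest, averaged over both times, belonged to *RLP11* (98.6%), *RMG1* (87.4%), AT3G09280, AT5G66890, AT1G57650 and *WRKY59* (72.3%). *RLP11* was lower than *acd6-1* at ZT1 (54.4%) and higher at ZT13 (143%), without overlap at either time. *RMG1* overlapped with *acd6-1* at both times. The lowest belonged to AT5G42223 (17.4%), AT5G66780 (19.9%), AT1G68380 (23.4%), AT3G04320 (26.2%), *IDL1* (32.0%) and AT2G31420 (33.8%).

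AT3G04320 held 19.5, 11.9 and 10.04 RPKM in *acd6-1* at ZT1 and 3.47, 1.44 and 4.12 RPKM in *acd6-1lux-1*, so the groups did not overlap. For AT5G42223 the *acd6-1* level at ZT13 rested on 1 library, at 10.9 RPKM beside 0.864 RPKM. Both genes with the lowest ratios therefore varied widely between *acd6-1* libraries, AT5G66780 between 0.400 and 4.34 RPKM at ZT13.

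To test *acd6-1lux-1* against *acd6-1* on unused libraries, genes were chosen at 1 time and tested at the other. By the Col-0 and *acd6-1* libraries of ZT13 alone 148 genes met the rule, the 91 included. At ZT1, which had no part in that choice, 24 of them were called lower in *acd6-1lux-1* and 1 higher, beside 2.56% and 1.66% of all genes. The median log2 fold change was -0.43, beside 0.09 over all genes. Replicate 2 of *acd6-1lux-1* and replicate 3 of *acd6-1* each mattered: without the former 11 genes were called in all, and without the latter 13. edgeR called 51 lower and 1 higher, beside 4.30% and 2.94% of all genes.

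Of the 24 lower genes, 20 were members. Membership also required a high *acd6-1* level at ZT1, so these are described without a test. AT1G76965 stood at 12.8% of its *acd6-1* level at ZT1, AT4G33290 at 13.9%, AT3G04320 at 21.8% and *OPT2* at 34.0%. *ADPG2*, *CYP82C2*, *CKX2* and *FMO1* were also among the 20, at 35.01%, 39.6%, 42.1% and 54.2%. In all 8 the libraries of *acd6-1lux-1* lay below those of *acd6-1*. The single gene called higher, *SAUR26* of the auxin-responsive SAUR family, was not a member.

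By the ZT1 libraries alone 271 genes met the rule, and at ZT13 8 of them were called lower in *acd6-1lux-1* than in *acd6-1* and none higher, beside 0.148% and 0.457% of all genes. The median was -0.34, beside 0.02. Only AT1G68380 of these 8 was a member, at 19.0% of its *acd6-1* level, and 4 others, AT5G39110, AT5G39120, AT5G39150 and AT5G39180, lie close together on chromosome 5. Leaving out a library changed the count to 2 or 5 (without replicate 1 or 2 of *acd6-1lux-1*) and to 4 or 20 (without replicate 1 or 2 of *acd6-1*), and with only the 4 libraries compared in the fit no gene was called.

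The same sets were used for *lux-1* against Col-0, where a gene near 0 must pass 1 RPKM in *lux-1* to be called. Of the 271, 7 were called higher in *lux-1* at ZT13 and none lower, beside 0.683% and 0.217% of all genes. *SWEET8*, with no read in Col-0 at ZT13, was the only member among them. edgeR called 19 of the 271 higher and 1 lower, beside 1.3% and 0.272% of all genes. The 7 became 4 without replicate 2 of *lux-1* or either of replicates 2 and 3 of Col-0, and 13 without replicate 1 of *lux-1*. Of the 148, 1 was called higher at ZT1 and none lower, beside 1.2% and 1.15%, and it was again *SAUR26*. A second gene passed without replicate 3 of *lux-1*.

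Between times in *acd6-1lux-1*, with all libraries in the fit, most of the members called were higher at ZT13. All genes were called about equally in both directions. The split among members depended on single libraries: leaving out 1 gave 7 to 12 members higher and 0 to 5 lower. The 5 lower came without replicate 2 at ZT1, the lowest of its group for 74 members. At ZT13 against ZT1, 9 members were called higher and 1 lower, beside 5.41% and 5.17% of all genes. The members' median was 0.10, beside 0.06 over all genes. The 9 were *RLP11*, *PP2-A7*, *PP2-B8*, AT1G76965, AT1G26970, AT1G06135, *OPT2*, *BGLU31* and AT3G09280.

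*PP2-A7* rose from 2.12, 0.883 and 1.65 RPKM to 5.72 and 9.49 RPKM, a log2 fold change of 1.75 ± 0.24 (SE, limma adjusted p = 1.7e-05). *RLP11* rose by 1.65 ± 0.20 (SE, limma adjusted p = 3.1e-06) and *PP2-B8* by 1.51 ± 0.21 (SE, limma adjusted p = 1.8e-05). AT1G76965 rose from at most 0.878 RPKM to 3.15 and 2.48 RPKM. *LecRK-I.1* went the other way, from 2.48 RPKM or more to 0.716 and 1.29 RPKM, falling by 1.14 (limma adjusted p = 1.4e-05). The count of 1 lower became 5, 0 or 3 without replicate 2 or 3 at ZT1 or replicate 2 at ZT13. edgeR called 17 members higher and 3 lower, beside 7.15% and 8.04% of all genes. In *acd6-1*, where no test was made, all libraries at ZT13 lay above those at ZT1 for 17 members, beside 39.9% of all genes, and below them for 10, beside 21.3%. Of the 9 genes called higher, AT1G76965 and AT3G09280 overlapped between times in *acd6-1* and the others lay above, and *LecRK-I.1* lay below.

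**Figure D5:**
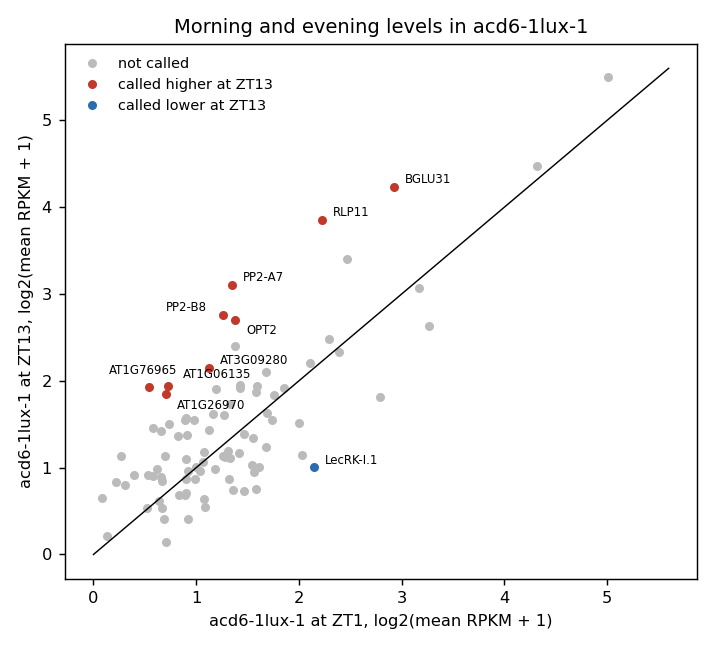
Level of the 91 genes in *acd6-1lux-1* at ZT13 against ZT1, both as log2(mean RPKM + 1), with a line at equal level. The 9 genes called higher at ZT13 (red) lie above the line and the 1 called lower, *LecRK-I.1* (blue), below it.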

How the data were processed

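RNA of whole plants was sequenced as single reads (TruSeq libraries, Illumina HiSeq) and mapped to TAIR10. The submitters' processing notes name CASAVA, and which aligner and counter were run is not given in the sources used here. The authors deposited RPKM values per transcript for 22 libraries, and the counts of total and mapped reads per library are as deposited; the percent of mapped reads is an other column of the same deposited sheet. The counting of strand and of near-identical copies is not given. 1 column of unnamed values was not used. Transcript lengths were inferred from the RPKM values, each as the shortest that made all values of the transcript whole reads. The shortest fitting multiple of 3 was taken instead where the shortest length divided it. That 97.5% of the lengths are multiples of 3 follows in part from this preference. They are called coding lengths here.

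Libraries held 10306552 to 16224975 mapped reads. Each length was chosen so that RPKM and mapped reads gave whole reads, so 100% of values are whole (within 0.001 read) by construction. This share is no check of the recovered reads. These reads served for counting intervals (95%, exact, conditional on the sum), the floor of 3 reads, and alternative tests. Genes with a group mean above 0.3 RPKM in at least 1 of the 8 groups were tested (21666), in limma 3.58.1 (R 4.3.3) on log2(RPKM + 1) with a trended prior variance, all 22 libraries in 1 fit, and Benjamini-Hochberg adjustment over all genes tested. The study calls the replicates biological samples and the sources do not say how plants were divided among them, so p-values measure the spread between these libraries. Alternatives were edgeR 4.0.16, DESeq2 1.42.0 and voom on recovered reads, other pseudocounts, filters, scalings and thresholds, a replicate block, and leaving out each library. Of these tests, limma alone was first tried on simulated data, and only for some of the comparisons. Changes were simulated only in more strongly expressed genes, so the simulation did not cover weakly expressed genes. The edgeR, DESeq2 and voom tests were not tried on simulated data. Symbols came from a TAIR10.1 annotation, which matched 24867 of 25218 identifiers.

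The members and gene lists were chosen with earlier results of these data known. Genes named are the 12 highest in *acd6-1*, members of the lists and families, the 6 highest and 6 lowest ratios of *acd6-1lux-1* to *acd6-1* among members of at least 2 RPKM, the 5 highest in *lux-1*, up to 4 called members per direction with the smallest adjusted p in each test, and 3 genes on each side of each threshold. Other names, the remaining members with a symbol among them, were chosen after their values were seen.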

Additional observations from a re-analysis of the deposited data

How the results depend on the processing

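The genes called in each comparison, and a few members not called, were followed through the alternatives. Of these 5512 checks 5293 kept the call or its absence, 209 lost the call, 10 gained it and none reversed a called direction. The other genes were followed only by counts. The counts in this section come without the share of all genes called under each setting, which can change too. Those shares stand above for the main setting and in part for edgeR. A higher count here may therefore reflect more calls among all genes. Members called in *acd6-1lux-1* against *lux-1* numbered 78 and 63 (ZT1 and ZT13) with 0.1 RPKM added before taking logarithms, 63 at ZT1 with 0.5 RPKM, 74 and 62 without the fold criterion, and 72 and 62 with edgeR, 70 and 59 with DESeq2 and 70 and 64 with voom. Leaving out each library gave 33 to 52 and 37 to 41. For ZT13 against ZT1 in *lux-1* the count was 22 with 0.1 RPKM, 8 with 0.5 RPKM, 1 after quantile normalization, 1 at an adjusted p under 0.05, 13 without the fold criterion, 17, 21 and 10 with edgeR, DESeq2 and voom, and 0 to 4 without a library. In *acd6-1lux-1* it was 22, 17, 30 without the fold criterion, 20 with edgeR, 24 with voom and 10 to 13 without a library.

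Of the 148 genes chosen at ZT13, 41 were called in *acd6-1lux-1* against *acd6-1* at ZT1 with 0.1 RPKM, 39 with 0.5 RPKM, 72 without the fold criterion, 52, 38 and 67 with edgeR, DESeq2 and voom, and 11 to 30 without a library. Of the 271 chosen at ZT1, 2 were called at ZT13 with 0.1 RPKM, 0 with only the libraries compared, 4 with edgeR, 5 with DESeq2 and 2 to 20 without a library. For *lux-1* against Col-0 the 271 gave 20, 12, 2 with only the libraries compared, 4 at an adjusted p under 0.05, 11 without the fold criterion, 20 with edgeR, 32 with DESeq2 and 4 to 13 without a library, and the 148 gave 7, 3, 2 without the fold criterion, 5, 6 and 3 with edgeR, DESeq2 and voom, and 1 to 2 without a library. The cause of these shifts was not tested.

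The rule gave 20 genes with the off threshold at 0.1 RPKM, 167 at 0.5 RPKM, 37 with the on threshold at 2 RPKM, 182 at 0.5 RPKM, 26 with every library past both, 271 at ZT1 alone, 148 at ZT13 alone and 76 to 105 without a library. The median level as a percent of *acd6-1* was 44.6% to 63.9% at ZT1 and 59.2% to 66.7% at ZT13 without a library, 73.9% at ZT13 with 1 RPKM added to both means, and 58.8% after median-of-ratios scaling. With the replicate number as a block 41 and 40 members were called in *acd6-1lux-1* against *lux-1* at ZT1 and ZT13. Same-numbered libraries correlated between -0.22 and 0.28 in their deviations, over 0.1 in 4 of 21 pairs. Deviations from the mean of so few libraries are tied to one another. These values therefore cannot tell whether same-numbered libraries shared a batch.

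At ZT13 the mutants carrying *acd6-1* had 2 libraries each, and 24 of the 91 genes had at most 3 Col-0 reads, so for these depth limits the Col-0 level.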
